A study of Homo sapiens with 18 samples.

Results

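The genes described here are the 8 components of JAK-STAT interferon signalling and its brakes that were chosen by name: the kinases JAK1, JAK2 and TYK2, the transcription factors STAT2, STAT3 and IRF9, and the inhibitors SOCS1 and SOCS3. Each was found in the count table through its Ensembl identifier without the version number, so 8 of 35044 genes are described, and all 8 passed the filter on low counts that kept 18335 genes for testing. The RNA-seq experiment used a pair of breast cancer lines, each with 3 libraries untreated, 3 after 12 h and 3 after 24 h with the PARP inhibitor olaparib, 18 libraries in all. HCC1937-EV is the BRCA1-mutated line HCC1937 with an empty vector, whose genotype the labels give as WT. The study describes HCC1937-OE-BRCA1 as the same line with wild-type BRCA1 overexpressed, which was not tested here. Per the study, both lines carry the mutated BRCA1 of HCC1937. The labels name olaparib as the treatment of every library, the 0 h ones included. Whether either line is a single clone is not given in the sources used here. Nothing in the labels says that the 3 libraries of a condition came from separate cultures, so the p-values measure the spread between these libraries, which may be technical.

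Interferons and cytokines of the IL-6 family bind receptors that have no enzyme activity of their own and rely on bound JAK kinases. JAK1 and TYK2 serve the type I and type III interferon receptors, JAK1 and JAK2 the interferon-gamma receptor, and all 3 kinases can serve receptors that share the gp130 chain. The kinases phosphorylate STAT proteins: STAT2 and IRF9 are subunits of the ISGF3 complex, which binds interferon-stimulated response elements, while STAT3 carries signals of the IL-6 family. SOCS1 and SOCS3 are made in response to the same signals and block the kinases, which closes a feedback loop. All values below are transcript levels, and phosphorylation, by which these proteins are switched on, was not measured here.

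The libraries held 15081973 to 17571922 counts assigned to genes. BRCA1 itself read 126, 111 and 116 CPM (the count scaled to a common library total) in untreated HCC1937-EV and 166, 122 and 127 CPM in untreated HCC1937-OE-BRCA1. These ranges overlapped and the difference was 0.24 on the log2 scale (adjusted p = 0.0654). At 12 h it was 0.16 (adjusted p = 0.197), while at 24 h BRCA1 was higher in HCC1937-OE-BRCA1 by 0.77 (adjusted p = 3.17e-06). The epithelial markers EPCAM and CDH1 averaged 310 and 433 CPM in untreated HCC1937-OE-BRCA1 but 0.0206 and 0.659 CPM in untreated HCC1937-EV. The basal markers KRT5, KRT14, KRT17, TP63 and EGFR summed to 3150 to 4030 CPM against 189 to 205 CPM in these libraries. EGFR made up nearly all of the HCC1937-EV sum, with a mean of 194 CPM there and 296 CPM in HCC1937-OE-BRCA1. Several defining markers of breast epithelium were thus nearly absent from HCC1937-EV, although the keratins KRT8 and KRT18 read 1890 and 875 CPM there. At an adjusted p under 0.05, 72.7% of all genes tested differed between the untreated lines. BRCA1 status therefore cannot be told apart from everything else in which these lines differ. Whether the lines share an origin, as the study describes, was not tested. As these are bulk samples, fewer cells of a type cannot be told apart from less RNA per cell. The libraries also differed, within conditions too, in how their counts depended on the GC content of genes. Spearman's rho ran from -0.585 to 0.614 over 14132 genes. Untreated HCC1937-EV libraries gave -0.55, -0.216 and -0.409, but those treated for 24 h gave 0.261, 0.579 and 0.402. HCC1937-OE-BRCA1 libraries gave 0.544, 0.185 and 0.213 after 12 h, then -0.29, -0.394 and -0.439 after 24 h. The other conditions held both signs. Comparisons between conditions of opposite sign, and the shares of all genes called in them, are thus mixed with this trend. Values with an offset for GC content and exonic length are given where a call rests on the choice.

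Against untreated cells, STAT2 had the largest change of the 8 members, in HCC1937-OE-BRCA1, where its transcript level was 2.51-fold the untreated level at 12 h and 2.43-fold at 24 h. JAK2 also rose in HCC1937-OE-BRCA1, after 24 h. In HCC1937-EV, TYK2 rose and JAK1 fell after 24 h. Without 1 library in turn, the 24 h calls of JAK2, TYK2 and JAK1 held in 4, 4 and 1 of 6 fits, and those of STAT2 in 6 of 6. Between the untreated lines, JAK1, JAK2 and SOCS3 were lower, and STAT2, STAT3, IRF9 and SOCS1 higher, in HCC1937-OE-BRCA1.

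Changes are log2 fold changes of edgeR's quasi-likelihood test over all 18 libraries, with p-values adjusted over all 18335 genes by the Benjamini-Hochberg method. In HCC1937-EV, 0 of 8 members passed at 12 h, where 0.0436% of all genes did, 0.0273% higher and 0.0164% lower (2963 genes had an unadjusted p under 0.05, and DESeq2's Wald test called 1 member, JAK1), and 2 of 8 passed at 24 h, where 13.7% of all genes did. Those were 1 higher, TYK2, and 1 lower, JAK1, beside 8.62% of all genes higher and 5.12% lower. In HCC1937-OE-BRCA1, 1 of 8 members passed at 12 h against 2.31% of all genes, and it was higher, as were 1.7% of all genes, while 0.605% were lower. At 24 h, 2 of 8 passed against 8.26% of all genes, both higher, as were 4.71% of all genes, while 3.55% were lower. The median change of the 8 members was -0.10 and -0.01 in HCC1937-EV at 12 h and 24 h, beside 0 over all genes at both times, and 0.22 and 0.27 in HCC1937-OE-BRCA1, beside 0.00 and 0.02. Between 12 h and 24 h no member passed in either line (0.18% of all genes in HCC1937-EV and 1.65% in HCC1937-OE-BRCA1, with 1686 and 3214 genes at an unadjusted p under 0.05). The 12 h and 24 h comparisons of a line share its 3 untreated libraries.

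**Figure D1:**
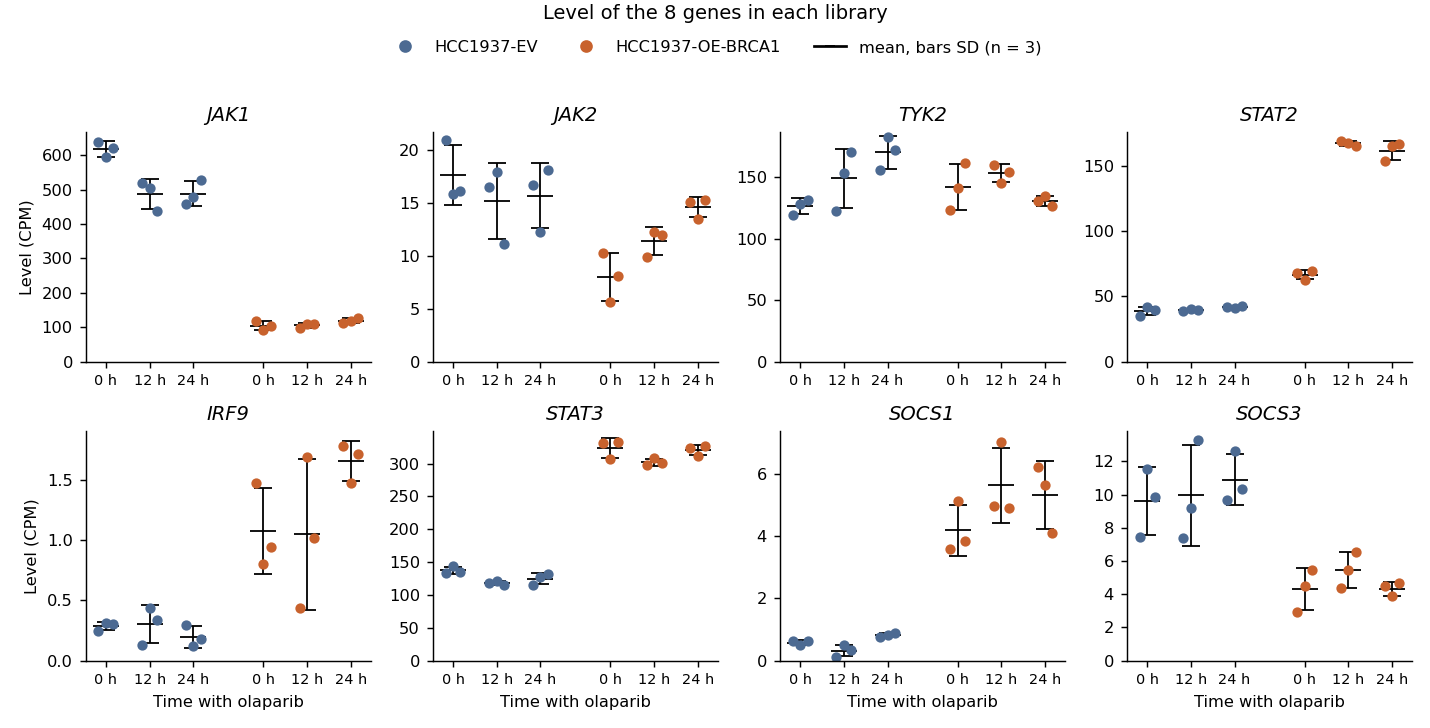
Level in CPM (vertical axis, from 0) of the 8 genes in each of the 18 libraries (points), by line and time with olaparib, with the mean and SD of 3 libraries. STAT2 in HCC1937-OE-BRCA1 goes from 62.8 to 69.4 CPM untreated to 154 to 169 CPM treated, while its HCC1937-EV libraries stay between 35.1 and 42.3 CPM.

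**Figure D2:**
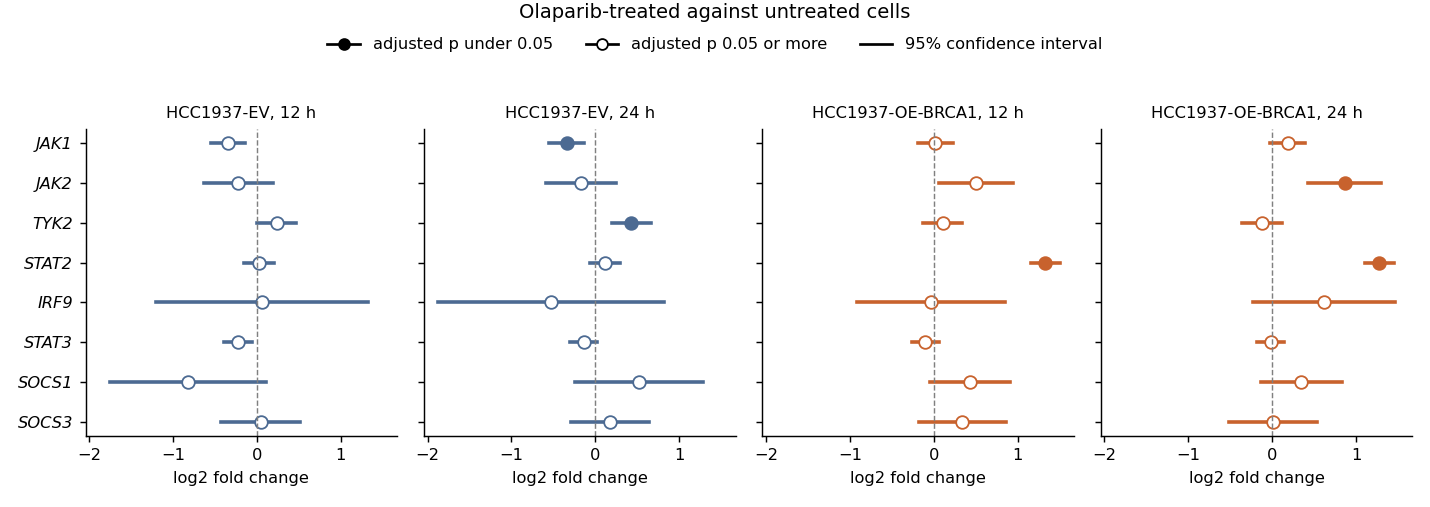
Log2 fold change against untreated cells of the same line (horizontal axis) for each member at 12 h and 24 h, with 95% confidence intervals. Filled points have an adjusted p under 0.05: STAT2 at both times and JAK2 at 24 h in HCC1937-OE-BRCA1, TYK2 and JAK1 at 24 h in HCC1937-EV.

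JAK1, the kinase shared by the receptors of all interferon types and of gp130, lies on the minus strand of chromosome 1 (64833229 to 64966504, GRCh38). Its level in HCC1937-EV was 638, 595 and 621 CPM untreated, 518, 505 and 438 CPM at 12 h and 457, 479 and 529 CPM at 24 h. The libraries of HCC1937-OE-BRCA1 had 118, 91.2 and 104 CPM untreated, 97.8, 110.1 and 109.6 CPM at 12 h and 111, 118 and 127 CPM at 24 h. Every HCC1937-EV library stood above every HCC1937-OE-BRCA1 library, and within HCC1937-EV all untreated libraries stood above all treated ones. The fall in HCC1937-EV was -0.34 at 12 h (SE 0.10, adjusted p = 0.155) and -0.34 at 24 h (SE 0.10, adjusted p = 0.0305), so only the 24 h change passed the test. That call was lost when any one of 5 libraries was left out: untreated replicates 1, 2 and 3 (adjusted p = 0.113, 0.0513 and 0.0827) and 24 h replicates 1 and 2 (0.118 and 0.109). With the GC offset it was -0.25 (adjusted p = 0.0186). In HCC1937-OE-BRCA1 the change was 0.02 at 12 h (95% interval -0.19 to 0.23) and 0.18 at 24 h (-0.03 to 0.40, adjusted p = 0.288). The 24 h changes of the lines differed by 0.52 (SE 0.14, adjusted p = 0.015), a call lost without HCC1937-OE-BRCA1 24 h replicate 3 (0.47, adjusted p = 0.0504).

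JAK2, which serves the interferon-gamma receptor and gp130, lies on the plus strand of chromosome 9 (4984390 to 5128183). Its level in HCC1937-OE-BRCA1 was 10.2, 5.67 and 8.12 CPM untreated, 9.87, 12.3 and 11.9 CPM at 12 h and 15.1, 13.5 and 15.3 CPM at 24 h. The 12 h libraries overlapped the untreated ones in part, and the 24 h libraries lay above both. The rise was 0.51 at 12 h (SE 0.21, adjusted p = 0.317) and 0.87 at 24 h (SE 0.21, 1.82-fold, adjusted p = 0.0126). The 24 h call was lost without untreated replicate 2, the lowest library (0.67, adjusted p = 0.0828), and without 24 h replicate 3 (0.83, adjusted p = 0.0552). With the GC offset the 12 h change was 0.54 and passed the test (adjusted p = 0.0424), and that at 24 h was 0.73 (adjusted p = 0.00237). In HCC1937-EV, JAK2 read 20.9, 15.8 and 16.2 CPM untreated, 16.5, 17.9 and 11.1 CPM at 12 h and 16.7, 12.2 and 18.1 CPM at 24 h, with all groups overlapping and changes of -0.22 and -0.17 (adjusted p = 0.628 and 0.603). The 24 h changes differed between the lines by 1.04 (SE 0.29, adjusted p = 0.0162), a call lost without HCC1937-EV untreated replicate 1 (0.90, adjusted p = 0.0525), HCC1937-EV 24 h replicate 2 (0.89, 0.0506) or HCC1937-OE-BRCA1 untreated replicate 2 (0.84, 0.0514). JAK2 was lower in untreated HCC1937-OE-BRCA1, with a difference of -1.14 (adjusted p = 4.85e-05), and at 24 h the lines differed by -0.10 (95% interval -0.52 to 0.31). At 12 h the difference was -0.41 (adjusted p = 0.0726), which passed with the GC offset (-0.33, adjusted p = 0.0496).

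TYK2, the partner of JAK1 at the type I and type III interferon receptors, lies on the minus strand of chromosome 19 (10350529 to 10380676). Its level in HCC1937-EV was 119, 128 and 132 CPM untreated, 123, 154 and 171 CPM at 12 h and 156, 183 and 172 CPM at 24 h. The 24 h libraries all lay above the untreated ones, and the 12 h libraries spanned the gap. The rise was 0.24 at 12 h (SE 0.11, adjusted p = 0.307) and 0.43 at 24 h (SE 0.11, adjusted p = 0.018). The 24 h call was lost without untreated replicate 1 (0.39, adjusted p = 0.097) and without 24 h replicate 2 (0.38, adjusted p = 0.0876). With the GC offset the 24 h rise was 0.19 (adjusted p = 0.0217). The exons of TYK2 are 61.3% GC, against 46.2% for JAK1 and 39.2% for JAK2. In HCC1937-OE-BRCA1, TYK2 read 124, 141 and 162 CPM untreated, 160.1, 146 and 154 CPM at 12 h and 131, 135 and 127 CPM at 24 h, and the treated groups overlapped the untreated one (changes 0.11 and -0.12, adjusted p = 0.796 and 0.571). The 24 h changes differed between the lines by -0.55 (SE 0.16, adjusted p = 0.0205). That call was lost without HCC1937-EV untreated replicate 1 (-0.50, adjusted p = 0.0648), HCC1937-EV 24 h replicate 2 (-0.50, 0.061), HCC1937-OE-BRCA1 untreated replicate 3 (-0.44, 0.0679) or HCC1937-OE-BRCA1 24 h replicate 3 (-0.53, 0.0554), and with the GC offset (-0.21, adjusted p = 0.0598). TYK2 was the kinase with the smallest difference between the untreated lines (0.17, 95% interval -0.07 to 0.40), and at 24 h it was lower in HCC1937-OE-BRCA1, with a difference of -0.38 (adjusted p = 0.00469), or -0.16 with the GC offset (adjusted p = 0.0105).

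STAT2, the ISGF3 subunit that carries the complex's transactivation domain, lies on the minus strand of chromosome 12 (56341597 to 56360155), and no annotated exon of another gene overlaps its exons. The 202 bases before its annotated first exon, chr12:56360156-56360357 on the minus strand (GRCh38.p14, RefSeq), are shown because STAT2 is the member with the clearest response, and because letters of the interferon-stimulated response element were looked for there.

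STAT2: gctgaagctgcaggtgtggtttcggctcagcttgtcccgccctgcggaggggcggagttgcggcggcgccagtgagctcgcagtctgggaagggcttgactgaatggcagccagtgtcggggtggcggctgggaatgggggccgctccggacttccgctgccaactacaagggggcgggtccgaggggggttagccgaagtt

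In HCC1937-OE-BRCA1, STAT2 read 67.8, 62.8 and 69.4 CPM untreated, 169, 168 and 166 CPM at 12 h and 154, 165 and 167 CPM at 24 h. In HCC1937-EV it read 35.1, 41.5 and 39.3 CPM untreated, 38.6, 40.0 and 39.6 CPM at 12 h and 41.9, 41.3 and 42.3 CPM at 24 h. All treated HCC1937-OE-BRCA1 libraries lay far above the untreated ones, the 12 h and 24 h libraries overlapped, and every HCC1937-EV library lay below every HCC1937-OE-BRCA1 library. The rise in HCC1937-OE-BRCA1 was 1.33 at 12 h (SE 0.084, lower 95% limit 1.15, adjusted p = 2.75e-09) and 1.28 at 24 h (SE 0.084, lower 95% limit 1.11, adjusted p = 2.77e-09). In HCC1937-EV the changes were 0.03 (95% interval -0.15 to 0.21, adjusted p = 0.953) and 0.11 (-0.06 to 0.29, adjusted p = 0.393). The responses of the lines differed by 1.30 at 12 h (SE 0.12, adjusted p = 5.27e-06) and by 1.17 at 24 h (SE 0.12, adjusted p = 1.13e-05). These 4 calls of STAT2 held whichever library was left out. The line difference grew from 0.79 untreated (adjusted p = 4.42e-08) to 2.09 at 12 h (7.02e-15) and 1.95 at 24 h (1.91e-14).

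Some markers of other cell types moved with STAT2. The summed level of the 4 leukocyte markers counted (PTPRC, CD14, CD68 and NKG7) was 34.0 to 48.6 CPM in untreated HCC1937-OE-BRCA1, 76.1 to 84.2 CPM at 12 h and 71.9 to 87.2 CPM at 24 h, and 0.375 to 0.766 CPM over all HCC1937-EV libraries. CD14 made up nearly all of it, with means of 40.6, 77.7 and 77.9 CPM in HCC1937-OE-BRCA1. PTPRC, the common leukocyte antigen, averaged 1.09, 0.931 and 1.23 CPM there, and CD68 and NKG7 each averaged at most 0.205 CPM. The endothelial markers summed to 17.2 to 20.2 CPM in untreated HCC1937-OE-BRCA1, 22.6 to 27.0 CPM at 12 h and 24.3 to 25.7 CPM at 24 h. Of these only PECAM1 rose at both times in HCC1937-OE-BRCA1, with means of 10.5, 16.5 and 19.8 CPM. CDH5 averaged 7.45, 7.17 and 4.77 CPM and VWF 0.559, 0.625 and 0.471 CPM. The luminal and general epithelial markers there summed to 5150 to 6520 CPM untreated, 5100 to 5710 CPM at 12 h and 3980 to 4370 CPM at 24 h. The part of these markers in the result was not tested.

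IRF9, the DNA-binding subunit of ISGF3, lies on the plus strand of chromosome 14 (24161053 to 24166565). It was the member with the fewest counts: 4, 5 and 5 in untreated HCC1937-EV, 2, 7 and 5 at 12 h and 5, 2 and 3 at 24 h, against 24, 13 and 15, then 7, 28 and 16, then 29, 24 and 28 in HCC1937-OE-BRCA1. In CPM, every HCC1937-OE-BRCA1 condition lay above the HCC1937-EV condition of the same time, with the closest approach at 12 h. There the nearest libraries both had 7 counts and were apart only by library scaling (0.440 against 0.438 CPM). The line differences were 1.87 untreated (SE 0.51, adjusted p = 0.00241), 1.78 at 12 h (0.00367) and 3.02 at 24 h (2.09e-05). With at most 7 counts in any HCC1937-EV library, IRF9 passed the filter on low counts only through HCC1937-OE-BRCA1. Its line differences are thus descriptions of a gene that was tested because it was higher there. The change with olaparib in HCC1937-OE-BRCA1 was -0.03 at 12 h (95% interval -0.91 to 0.85) and 0.62 at 24 h (-0.22 to 1.46, adjusted p = 0.379), intervals that leave room for a change of the size of that of STAT2 at 24 h. The level of IRF9 is uncertain, because 88.9% of its coding bases are also annotated to AL136295.5 on the same strand, which itself had 1 to 8 counts per library.

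STAT3, the transcription factor of IL-6 family signals, lies on the minus strand of chromosome 17 (42313324 to 42388568). Its level was 134, 144 and 135 CPM in untreated HCC1937-EV, 118, 121 and 115 CPM at 12 h and 116, 127 and 132 CPM at 24 h. The libraries of HCC1937-OE-BRCA1 had 331, 307 and 333 CPM untreated, 298, 308 and 301 CPM at 12 h and 323, 312 and 327 CPM at 24 h. The lines were far apart at every time, and within HCC1937-EV both treated groups lay below the untreated one. STAT3 was higher in HCC1937-OE-BRCA1 by 1.23 untreated (SE 0.079, adjusted p = 9.21e-12), 1.36 at 12 h (1.92e-12) and 1.36 at 24 h (1.86e-12). No treatment change passed the test: -0.23 and -0.14 in HCC1937-EV (adjusted p = 0.179 and 0.238), -0.10 and -0.01 in HCC1937-OE-BRCA1 (0.714 and 0.956). At 24 h the 95% interval in HCC1937-OE-BRCA1 was -0.17 to 0.15, far from the change of STAT2. With the GC offset the 12 h change in HCC1937-OE-BRCA1 was -0.18 (adjusted p = 0.0302).

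The brakes SOCS1 and SOCS3 bind the kinases or their receptors and block them. For each gene, 250 bases before a RefSeq start are printed because the brakes differed between the lines in opposite directions (GRCh38.p14, RefSeq). The SOCS1 stretch is chr16:11256205-11256454 and the SOCS3 stretch chr17:78360926-78361175, both on the minus strand. The SOCS3 stretch lies before the more upstream of its RefSeq starts, which is upstream of the GENCODE 29 gene end given below. The window of the other start also held neither motif searched. The bases just upstream of that GENCODE gene end lay in neither window, so they were not searched. Capitals mark a match to the repeated letters of an interferon-stimulated response element, GAAA and GAAA with 2 bases of any kind between.

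SOCS1: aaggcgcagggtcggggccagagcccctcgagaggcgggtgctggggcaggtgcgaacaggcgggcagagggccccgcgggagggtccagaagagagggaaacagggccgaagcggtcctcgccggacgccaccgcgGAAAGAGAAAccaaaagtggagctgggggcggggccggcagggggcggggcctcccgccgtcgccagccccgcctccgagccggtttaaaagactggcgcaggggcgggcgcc

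SOCS3: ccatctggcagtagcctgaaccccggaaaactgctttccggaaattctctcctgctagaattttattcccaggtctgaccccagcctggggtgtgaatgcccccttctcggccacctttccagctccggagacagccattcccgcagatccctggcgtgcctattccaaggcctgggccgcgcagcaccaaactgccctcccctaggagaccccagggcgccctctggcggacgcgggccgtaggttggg

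This pair of GAAA letters was searched on both strands, with overlapping matches counted, in the 250 bases before each annotated start, and occur in 3.02% of 35116 such windows of 27305 genes. Among 14 windows of the 8 members, the SOCS1 window held 1 match, at -113 from the start. TTCNNNGAA, the letters of a STAT dimer site, occur in 6.57% of all windows and in 1 of the 14, that of IRF9 at -63. For comparison, the windows of the ISGF3 targets ISG15 and IFIT1 held the GAAA pair at -113 and -107 and at -116 and -103, 1 of 3 windows of MX1 held it at -196, and that of OAS1 held none. The STAT2 window held neither motif.

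SOCS1, an inhibitor of JAK1, JAK2 and TYK2, is a gene of 1 exon in the annotated blocks of chromosome 16 (11254405 to 11256200, minus strand). Its counts in HCC1937-EV were 10, 8 and 10 untreated, 2, 8 and 5 at 12 h and 13, 14 and 15 at 24 h. In HCC1937-OE-BRCA1 they were 58, 83 and 61 untreated, 79, 116 and 77 at 12 h and 101, 92 and 67 at 24 h. Every HCC1937-OE-BRCA1 library lay far above every HCC1937-EV library, while the treated HCC1937-OE-BRCA1 groups overlapped the untreated one. SOCS1 was higher in HCC1937-OE-BRCA1 by 2.84 untreated (SE 0.30, 7.15-fold, adjusted p = 3.33e-08), 4.09 at 12 h (SE 0.33, adjusted p = 4.02e-10) and 2.67 at 24 h (SE 0.28, adjusted p = 2.34e-08). Its changes with olaparib in HCC1937-OE-BRCA1 were 0.43 at 12 h (95% interval -0.05 to 0.91, adjusted p = 0.494) and 0.35 at 24 h (-0.13 to 0.83, adjusted p = 0.385), so the upper ends lie below the lower end for STAT2. The exons of SOCS1 are 69.1% GC, and with the GC offset the 24 h change was 0.62 (adjusted p = 0.0534), beside 1.23 for STAT2. In HCC1937-EV the changes of SOCS1 without the offset were -0.82 (adjusted p = 0.369) and 0.52 (adjusted p = 0.36). From 12 h to 24 h the HCC1937-EV libraries did not overlap, but the difference of 1.34 did not pass (SE 0.41, adjusted p = 0.286).

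SOCS3, which acts at gp130 and related receptors, lies on the minus strand of chromosome 17 (78356778 to 78360077). Its level in HCC1937-EV was 7.45, 11.6 and 9.87 CPM untreated, 7.36, 9.19 and 13.3 CPM at 12 h and 9.68, 12.6 and 10.4 CPM at 24 h. The libraries of HCC1937-OE-BRCA1 had 2.96, 4.50 and 5.48 CPM, then 4.40, 5.44 and 6.55 CPM, then 4.48, 3.87 and 4.66 CPM. All HCC1937-EV libraries were above all HCC1937-OE-BRCA1 libraries, and the times overlapped within each line. SOCS3 was lower in HCC1937-OE-BRCA1, with differences of -1.16 untreated (SE 0.24, adjusted p = 0.000196), -0.86 at 12 h (0.00249) and -1.33 at 24 h (3.9e-05). No treatment change of SOCS3 passed the test: the values were 0.05 and 0.18 in HCC1937-EV and 0.34 and 0.01 in HCC1937-OE-BRCA1 (adjusted p from 0.637 to 1), and with the GC offset those in HCC1937-EV were -0.18 and -0.14.

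**Figure D3:**
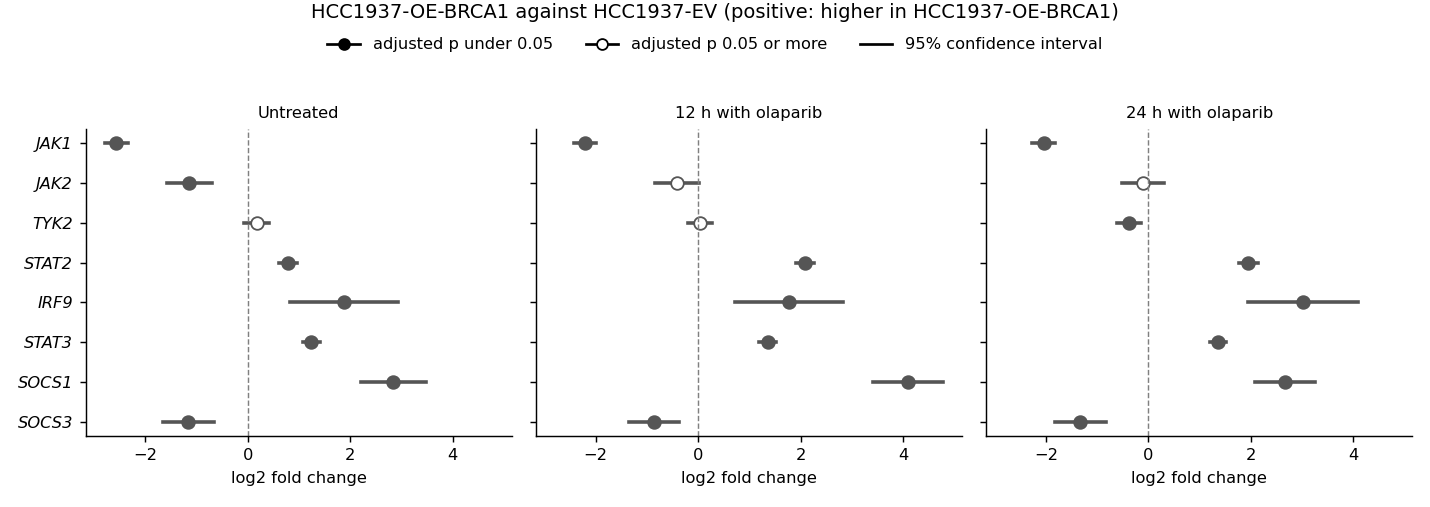
How far HCC1937-OE-BRCA1 lay from HCC1937-EV (log2 fold change, horizontal axis, positive where HCC1937-OE-BRCA1 was higher) for each member untreated, at 12 h and at 24 h, with 95% confidence intervals, filled where the adjusted p was under 0.05. JAK1 lies between -2.57 and -2.04 at all 3 times, and SOCS1 between 2.67 and 4.09.

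Between the lines, 7 of 8 members passed the test untreated, 6 at 12 h and 7 at 24 h, where 72.7%, 72.9% and 73.9% of all genes did. Untreated, 4 were higher and 3 lower in HCC1937-OE-BRCA1 (39.4% and 33.3% of all genes), at 12 h 4 and 2 (38.8% and 34.1%), and at 24 h 4 and 3 (39.9% and 34%). The share of members is thus close to that of all genes. The members counted as higher include IRF9, which passed the filter on low counts only through HCC1937-OE-BRCA1. The fibroblast markers summed to 97.2 to 153 CPM in HCC1937-EV and 6.96 to 12.4 CPM in HCC1937-OE-BRCA1. COL1A1 made up most of the HCC1937-EV sum, with means of 98.6 CPM untreated and 133 CPM at 24 h. PDGFRB averaged 8.17 and 10.5 CPM at these times. COL1A2, COL3A1, DCN and LUM each averaged at most 0.124 CPM in HCC1937-EV. Within HCC1937-EV the sum went from 97.2 to 117 CPM untreated to 139 to 153 CPM at 24 h, where TYK2 and JAK1 were called. The part of these markers in these results was not tested. The median difference of the members was 0.48, 0.70 and 0.63 at the 3 times, beside 0.11, 0.08 and 0.12 over all genes. In the response to olaparib, 1 of 8 members differed between the lines at 12 h (STAT2 upwards, against 0.518% of all genes, 0.376% upwards and 0.142% downwards) and 4 of 8 at 24 h (STAT2, JAK1 and JAK2 upwards and TYK2 downwards in HCC1937-OE-BRCA1 relative to HCC1937-EV, against 19.4% of all genes, 8.16% upwards and 11.2% downwards). The other members gave intervals of the 24 h difference from -0.10 to 0.35 for STAT3, -0.45 to 2.75 for IRF9, -1.05 to 0.71 for SOCS1 and -0.87 to 0.53 for SOCS3.

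Levels were compared between genes per kilobase of exon (RPKM). In untreated HCC1937-EV the order was JAK1 at 97.8 ± 3.50 RPKM (SD, n = 3), TYK2 at 18.7, STAT3 at 15.6, STAT2 at 6.33, SOCS3 at 3.52, JAK2 at 2.86, SOCS1 at 0.322 and IRF9 at 0.0761. In untreated HCC1937-OE-BRCA1 it was STAT3 at 36.7 ± 1.65, TYK2 at 21.0, JAK1 at 16.5, STAT2 at 10.9, SOCS1 at 2.32, SOCS3 at 1.58, JAK2 at 1.30 and IRF9 at 0.283. After 12 h with olaparib, STAT2 stood second in HCC1937-OE-BRCA1 at 27.4 ± 0.321 RPKM. The leading member thus changed from a kinase to a STAT between the lines. JAK1 made up 81.95% ± 0.748 (SD, n = 3) of the summed RPKM of the 3 kinases in untreated HCC1937-EV and 42.6% ± 5.02 in untreated HCC1937-OE-BRCA1, and the sum itself was 119 against 38.8 RPKM. Of STAT2 and STAT3 together, STAT2 made up 22.9% in untreated HCC1937-OE-BRCA1, 44.4% at 12 h and 42.1% at 24 h, with 28.8%, 32.6% and 32.6% in HCC1937-EV. Of the SOCS1 and SOCS3 sum, SOCS1 made up 59.9% untreated in HCC1937-OE-BRCA1 and 8.69% in HCC1937-EV, so the commoner of the brakes per length was SOCS1 in the former and SOCS3 in the latter.

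**Figure D4:**
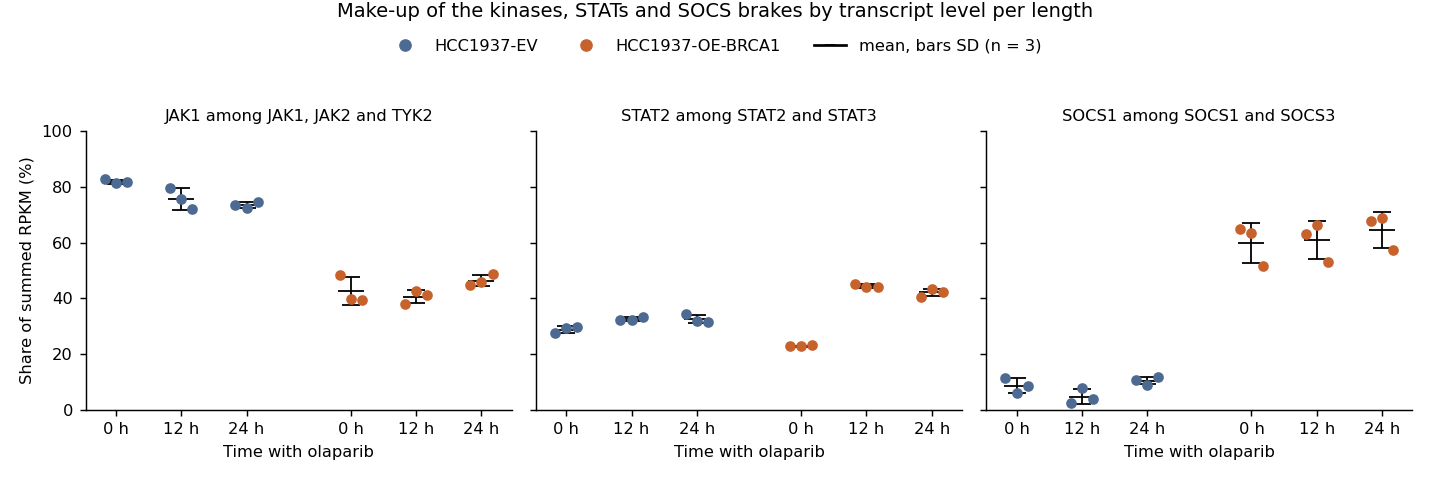
Share of summed RPKM (percent, axis from 0 to 100) held by JAK1 among the 3 kinases, STAT2 among STAT2 and STAT3, and SOCS1 among SOCS1 and SOCS3, per library (points) with mean and SD of 3. The STAT2 share in HCC1937-OE-BRCA1 moves from 22.8 to 23.1% untreated to 40.7 to 45.1% treated.

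Upstream of the members, 6 of 8 ligand genes tested were called higher in HCC1937-OE-BRCA1 at 24 h, beside 4.71% of all genes. At 12 h 3 were, beside 1.7% (median change 1.51 at 24 h and 1.26 at 12 h). A ligand gene low in untreated cells could pass the filter on low counts through the treated libraries, as IFNB1 did. Ligand genes that stayed low, IFNK and OSM, were not tested. These counts are therefore descriptions of the ligand genes that passed. No receptor gene for interferon passed the test there, where 2.31% of all genes did at 12 h and 8.26% at 24 h. The other ligands, IFNE and IL11, had 24 h changes of 0.48 and -0.30 there (adjusted p = 0.4 and 0.485). IFNL1, a type III interferon, went from 2.01 ± 0.397 CPM to 12.8 ± 1.77 at 12 h and 14.7 ± 1.95 at 24 h (changes 2.67 and 2.87, adjusted p = 2.58e-06 and 8.17e-07). IFNB1, the type I interferon of epithelial cells and fibroblasts, went from 2 to 4 counts per untreated library to 10 to 18 at 24 h (adjusted p = 0.0286), a call that held in 2 of the 6 fits that each left out 1 library. IL6 and LIF, ligands of the gp130 family, rose by 1.37 (adjusted p = 0.0111) and 0.56 (0.0314) at 24 h, calls that held in 3 and 1 of those 6 fits. IFNL2 and IFNL3, called higher at 24 h and IFNL3 also at 12 h, are near-identical copies whose counts cannot be assigned with certainty. Without 1 library in turn, their 24 h calls each held in 4 of 6 fits, and that of IFNL1 in 6 of 6. In HCC1937-EV, IFNB1 and IFNL1 to IFNL3 had 0 counts in every library and IL6 no more than 1. Only IL11 was called there, at 24 h, from 2 to 7 counts to 12 to 16 (adjusted p = 0.0308, held in 2 of 6 such fits), beside 8.62% of all genes higher.

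None of 6 interferon receptor genes was called in any treatment comparison against untreated cells, where 0.0436% to 13.7% of all genes were. With 6 genes, this is close to the share of all genes. The levels of IFNAR2 and IL10RB are uncertain, because 86.9% and 80.8% of their coding bases are also annotated to other genes. IFNLR1, the specific chain of the type III interferon receptor, averaged 9.50, 12.8 and 9.53 CPM in HCC1937-OE-BRCA1 and had at most 2 counts in every HCC1937-EV library. Among 6 receptors of the gp130 type, 5 were lower in untreated HCC1937-OE-BRCA1, beside 33.3% of all genes. They included gp130 itself (IL6ST), with 201 ± 20.8 CPM in HCC1937-EV and 50.6 ± 14.3 in HCC1937-OE-BRCA1. At 24 h IL6ST and OSMR, the oncostatin M receptor, fell in HCC1937-EV by 0.71 (adjusted p = 0.0153) and 0.38 (0.0338), beside 5.12% of all genes. These calls held in 3 and 1 of 6 fits without 1 library. In HCC1937-OE-BRCA1 OSMR rose at 24 h by 0.59 (adjusted p = 0.0028), in 6 of 6 such fits, beside 4.71% of all genes.

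Of 5 other JAK and STAT genes counted, 0 were called at 12 h in either line and 1 at 24 h in each. At 24 h 13.7% of all genes were called in HCC1937-EV and 8.26% in HCC1937-OE-BRCA1. JAK3 rose in HCC1937-EV at 24 h by 0.74 (adjusted p = 0.0349), and STAT5B fell in HCC1937-OE-BRCA1 at 24 h by 0.30 (adjusted p = 0.0482), each call holding in 1 of 6 fits without 1 library.

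Of 16 other brakes, USP18 alone was called in HCC1937-OE-BRCA1 with olaparib, beside 2.31% of all genes at 12 h and 8.26% at 24 h. USP18 removes ISG15 from proteins and holds down the type I interferon receptor, and its level was 84.6 ± 3.57 CPM untreated, 177 ± 17.7 at 12 h and 175 ± 4.09 at 24 h (changes 1.07 and 1.05, adjusted p = 7.27e-07 and 5.44e-07). In HCC1937-EV it was 10.8, 11.8 and 11.1 CPM. In HCC1937-EV, 3 of the 16 brakes fell at 24 h, beside 5.12% of all genes. They were the adaptor SH2B3 by 0.73 (adjusted p = 0.00633), the SUMO ligase PIAS2 by 0.51 (0.0432) and the phosphatase PTPN11 by 0.38 (0.0212). Without 1 library in turn, these calls held in 6, 1 and 2 of 6 fits. Between the untreated lines 4 of the 16 were higher and 7 lower in HCC1937-OE-BRCA1, beside 39.4% and 33.3% of all genes.

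Downstream, most target genes of ISGF3 rose in HCC1937-OE-BRCA1. Of 12 such genes, 11 were called higher in HCC1937-OE-BRCA1 at both times (MX1, ISG15, IFI44L, IFIT1, IFIT3, OAS1, OAS2, RSAD2, HERC5, DDX60 and EPSTI1), with median changes of 1.22 and 1.25 beside 0.00 and 0.02 over all genes. Of all genes, 1.7% were called higher there at 12 h and 4.71% at 24 h. OAS1, a sensor enzyme of double-stranded RNA, went from 136 ± 5.81 CPM to 348 ± 11.9 and 331 ± 10.1. RSAD2, the antiviral protein viperin, went from 53.2 ± 3.69 CPM to 250.2 ± 9.35 and 232 ± 15.3. IFI6 read 605 ± 224, 829 ± 94.5 and 818 ± 109 CPM and was the one not called. In HCC1937-EV, 4 of the 12 were called higher at 24 h, beside 8.62% of all genes. They were IFI6 by 1.99 (adjusted p = 0.00154), ISG15 by 0.86 (0.0166), IFIT1 by 0.84 (0.00325) and IFIT3 by 0.71 (0.00666). The call of ISG15 was lost without untreated replicate 1 or 24 h replicates 1 or 2. Their levels stayed low there: IFIT1 went from 7.43 ± 1.05 to 13.3 ± 2.40 CPM, against 89.2 ± 17.6 CPM in untreated HCC1937-OE-BRCA1. EPSTI1, IFI44L, OAS2 and RSAD2 had no more than 3 counts in every HCC1937-EV library, and the median change of the other 8 at 24 h was 0.32.

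Of 6 tested target genes of interferon-gamma, IRF1, GBP1, GBP2 and CIITA were called higher in HCC1937-OE-BRCA1 at 12 h (median of the 6 was 0.74) and IRF1 and CIITA at 24 h (median 0.29). Of all genes in that line, 1.7% were called higher at 12 h, and 4.71% higher and 3.55% lower at 24 h. Of the coding bases of IRF1, 59.5% are also annotated to genes on the opposite strand. As the strand setting is not given, the level of IRF1 is uncertain. GBP1, a guanylate-binding protein, read 69.2 ± 10.9 CPM untreated, 139 ± 5.65 at 12 h and 72.8 ± 2.95 at 24 h, and fell between 12 h and 24 h by 0.93 (adjusted p = 0.000242). GBP2 fell likewise by 0.82 (0.0169), a call that held in 1 of 6 fits without 1 library, and the 12 h call of CIITA held in 1 of 6. None of the 6 was called in HCC1937-EV, where 0.0436% of all genes were at 12 h and 13.7% at 24 h. There GBP2 had at most 2 counts. The 12 targets of STAT3 gave 2 higher calls in HCC1937-OE-BRCA1 at 12 h (MYC by 0.32 and SERPINA3 by 0.87, adjusted p = 0.0426 and 0.03) and 2 higher and 1 lower at 24 h (MCL1 by 0.35 and SERPINA3 by 0.87, CCND1 by -0.28, adjusted p = 0.00855, 0.0151 and 0.033). In HCC1937-EV, PIM1 and CEBPD were called higher at 24 h by 0.41 and 0.69 (adjusted p = 0.039 and 0.0129), beside 8.62% of all genes. SERPINA3 had 0 counts there. The level of SERPINA3 is uncertain, because 99.9% of its coding bases are also annotated to AL049839.2 on the same strand. Without 1 library in turn, MYC held in 2 of 6 fits, SERPINA3 in 1 at 12 h and 2 at 24 h, MCL1 in 5, CCND1 in 1, CEBPD in 3 and PIM1 in 0. The median of the 12 STAT3 targets in HCC1937-OE-BRCA1 was 0.16 at 12 h and 0.12 at 24 h, beside 1.22 and 1.25 for the ISGF3 targets.

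**Figure D5:**
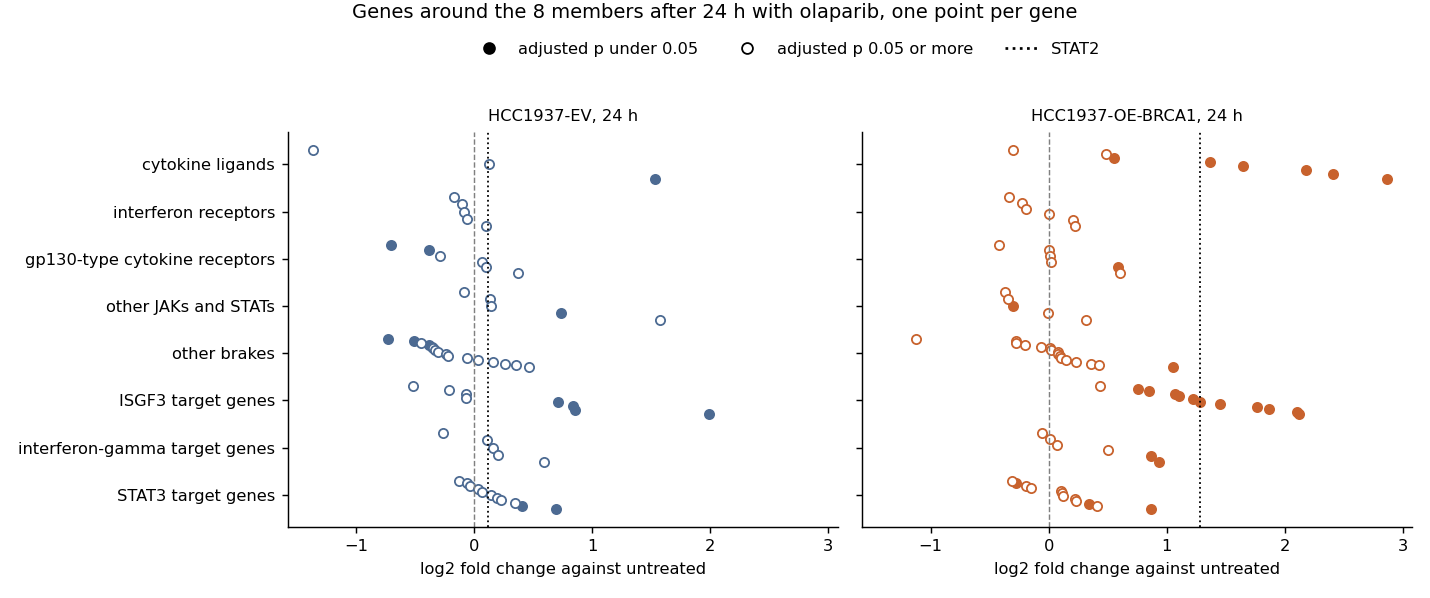
Log2 fold change after 24 h with olaparib (horizontal axis) of the genes of each list, one point per gene, filled where the adjusted p was under 0.05, with the change of STAT2 as a dotted line. Genes with no more than 3 counts in every library of a line are left out (12 of 71 in HCC1937-EV, 0 in HCC1937-OE-BRCA1), and 11 of 12 ISGF3 targets are filled in HCC1937-OE-BRCA1.

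Across the 18 libraries, after subtraction of the mean of each line, the genes whose log2 level was most like that of STAT2 among 18297 tested genes with a symbol were RSAD2 (Pearson's r = 0.991), CMPK2 (0.986) and IL1RN (0.984), with 49 genes at 0.9 or above. JAK1 was most like MED14 (0.981), IQGAP1 (0.978) and SEC31A (0.969), with 207 genes at 0.9 or above, and TYK2 most like WDR6 (0.969), OPLAH (0.959) and EPHB4 (0.953), with 131. JAK2 was most like ADD3 (0.943), and STAT3 most like DIAPH1 (0.936). For SOCS1 and IRF9 no gene reached 0.9. Among the members, JAK1 and TYK2 ran in opposite directions (-0.713), JAK1 ran with STAT3 (0.728) and JAK2 (0.69), and TYK2 with SOCS3 (0.672). These are descriptions over libraries that share lines, treatment and the GC trends given above.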

How the data were processed

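RNA-seq of 18 libraries (2 lines, 3 times, 3 libraries per condition) was analysed. The authors deposited raw read counts per gene, in 1 joint table and 18 single-library tables that hold equal values. Per the submitters' processing notes the tools were HISAT2, featureCounts and DESeq2 on GRCh38 (hg38), with versions and strand setting not given in the sources used here. Reads of genes that overlap on the same strand cannot be told apart, nor, without a known strand setting, those of genes that overlap on opposite strands. Symbols were matched by Ensembl identifier without version for 34966 of 35044 genes (99.78%), and loci came from GENCODE 29.

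Genes passing edgeR's filterByExpr by condition (18335) were tested with edgeR 4.0.16 (R 4.3.3, limma 3.58.1): TMM library sizes, 1 mean per condition over all 18 libraries, quasi-likelihood test, Benjamini-Hochberg adjustment over all genes tested, called at 0.05. CPM was the count scaled to a common library total, and RPKM divided it by annotated exonic length. Library totals of 15081973 to 17571922 counts gave a mean biological coefficient of variation of 12.9%. Library pairs within a condition all differed by more than sampling noise. Counts of 18008 genes were simulated for the 24 h comparison in HCC1937-OE-BRCA1. Of the changed genes, 100% at 4-fold, 86% at 2-fold, 30% at 1.5-fold and 68% at 0.5-fold were called, and 6 of 17808 unchanged ones. The simulation held only the libraries of that comparison, no GC trend, and changes only in genes past a low level. Its rates need not hold for the real comparisons.

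The members and the pathway lists were chosen with earlier results of these data known. The 8 members are named in every comparison. A gene of a list is named where it was called between times within a line or in the difference of the responses, or where it had no more than 3 counts in every library of a line. IFNAR2 and IL10RB are named for the overlap of their coding bases with other genes. Alternatives were DESeq2 size factors, no filter, at least 10 counts in every library, the DESeq2 1.42.0 Wald test, only the libraries compared, an added minimum change of 0.5, an offset for GC content and length (mgcv 1.9.3, values for 98.5% of tested genes), the replicate number as a block with and without that offset, and each library left out in turn. IFNG was not in the table, and IFNK, OSM, IRF8 and CXCL9 did not pass the filter. Promoter letters came from RefSeq (GRCh38.p14), and all 8 members had an entry. Some genes of the pathway and marker lists are not reported here and were left out of the counts.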

Additional observations from a re-analysis of the deposited data

Results flagged for a closer look

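The results below were picked because the change with olaparib differed between the lines in a test of that difference itself (edgeR's quasi-likelihood test, adjusted p under 0.05). Values are the log2 change in HCC1937-OE-BRCA1 minus that in HCC1937-EV, and 3 libraries per condition leave no test for a single outlying library.

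Among the members, the difference was 1.302 for STAT2 at 12 h (adjusted p = 5.27e-06) and 1.167 at 24 h (1.13e-05). At 24 h it was 0.5232 for JAK1 (adjusted p = 0.015), 1.038 for JAK2 (0.0162) and -0.5503 for TYK2 (0.0205). The changes in the lines themselves were -0.34 and 0.18 for JAK1, -0.17 and 0.87 for JAK2, and 0.43 and -0.12 for TYK2, in HCC1937-EV and HCC1937-OE-BRCA1.

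At 12 h, the brake USP18 differed by 0.9431 (adjusted p = 0.00269) and IRF1 by 0.6788 (0.0464). Of the ISGF3 targets, MX1 differed by 2.268 (0.0303), IFIT1 by 1.446 (0.00113), IFIT3 by 1.603 (0.000152), OAS1 by 1.339 (5.27e-06) and HERC5 by 1.324 (0.000152). The untreated level of MX1 in HCC1937-EV was 0.371 CPM.

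At 24 h, USP18 differed by 1.015 (adjusted p = 0.000293). Of the ISGF3 targets, IFIT1 differed by 0.928 (0.00444), IFIT3 by 1.393 (0.00015), OAS1 by 1.353 (1.52e-06), HERC5 by 2.08 (5.06e-07) and DDX60 by 0.9198 (0.00886), while IFI6 differed the other way by -1.557 (0.0105). Of the interferon-gamma targets, IRF1 differed by 0.6672 (0.00533) and CIITA by 1.196 (0.00953).

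Further differences in the 24 h change were 0.9682 for OSMR (0.000924), 1.852 for IFNE (0.0275), -1.836 for IL11 (0.0171) and -1.109 for JAK3 (0.0254). Of the other brakes, PIAS1 differed by 0.602 (0.0382), PIAS2 by 0.7366 (0.0371), PIAS4 by -0.6286 (0.0212) and SH2B3 by 1.155 (0.00166). Of the STAT3 targets, PIM1 differed by -0.7154 (0.00879), MCL1 by 0.3815 (0.021) and CCND1 by -0.3403 (0.0382). When each of 12 libraries was left out in turn, fewer than 12 fits kept the call for IFNE (4), IL11 (9), PIAS1 (5), PIAS2 (3), PIAS4 (8), JAK3 (6), MCL1 (10) and CCND1 (1) at 24 h, and for MX1 (7) and IRF1 (2) at 12 h. With the GC offset the 24 h differences of PIAS1 (0.18), PIAS2 (0.17), PIAS4 and JAK3 (-0.89) were no longer called.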

How the results depend on the processing

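No called change of a member or named list gene reversed its direction under the alternatives run, and the 4 treatment and response calls of STAT2 held under each one. Changes that were called in neither fit did change sign: with the GC offset the 24 h changes in HCC1937-EV were -0.05 for SOCS1, -0.14 for SOCS3 and 0.04 for JAK2, and the 24 h differences of the responses were 0.66 for SOCS1 and 0.29 for SOCS3. The number of members called moved by over 1.5 times in these cases. In HCC1937-EV at 12 h the DESeq2 Wald test called 1 (JAK1, adjusted p = 0.0467), and at 24 h a minimum change of 0.5 left 0. In HCC1937-OE-BRCA1 at 12 h the GC and length offset gave 3 (STAT2, JAK2 and STAT3), and from 12 h to 24 h the fit of only the libraries compared gave 1 (TYK2, adjusted p = 0.0196). Leaving out 1 library gave 0 to 2 members in HCC1937-EV at 24 h, 1 to 2 in HCC1937-OE-BRCA1 at 24 h and 2 to 4 for the 24 h difference of the responses. TYK2 passed between the untreated lines without HCC1937-OE-BRCA1 untreated replicate 1 (0.26, adjusted p = 0.0466), and JAK2 between the lines at 12 h without HCC1937-EV 12 h replicate 3 (-0.58, 0.0134), with the GC offset (-0.33, 0.0496) and with no filter (-0.42, 0.0348). The counts of all genes called moved more: leaving out 1 library gave 1 to 492 in place of 8 in HCC1937-EV at 12 h, 488 to 2283 in place of 2520 at 24 h, 260 to 475 in place of 423 in HCC1937-OE-BRCA1 at 12 h and 662 to 3344 in place of 1515 at 24 h. The cause was not tested. Of the list genes in HCC1937-EV at 24 h, the GC offset ended the calls of PIAS2, JAK3, CEBPD and PIM1. It brought the change of IL6ST to -0.40, of OSMR to -0.25, of PTPN11 to -0.20 and of ISG15 to 0.43, all still called. IRF9 and SOCS1 could not be tested with at least 10 counts in every library. Counts under 30 for IRF9 limit what could be seen of its response.

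The replicate numbers did not pair the samples: over 27 pairs of the same number in different lines the correlation of deviations ran from -0.148 to 0.295, over 18 pairs within a line from -0.227 to 0.147, and 7 of 18 libraries correlated best with their own number. With the replicate block the members called were the same in number as without it in each comparison (2 in HCC1937-EV at 24 h, 1 and 2 in HCC1937-OE-BRCA1), and with block and GC offset together there were 3 in HCC1937-OE-BRCA1 at 12 h. Among list genes the block alone ended the calls of STAT5B at 24 h and of MYC and SERPINA3 at 12 h in HCC1937-OE-BRCA1, and that of IRF1 for the 12 h difference of the responses.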
